A study of Caenorhabditis elegans with 6 samples.

Results

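Sperm genes of Caenorhabditis elegans were followed in whole-worm RNA from an amyloid beta strain, and were taken by name from the deposited table: all rows named msp, ssp or spe followed by a number, together with gsp-3 and gsp-4. This gave 74 genes of 22416 with counts, namely 35 msp genes, 12 ssp genes, 25 spe genes and the 2 gsp genes. Of the 74, 55 passed the filter on low counts and were tested, 28 of them msp, 8 ssp, 17 spe and 2 gsp. The other 19 genes had 0 to 93 reads each over all 6 libraries, and 2 of them, msp-37 and msp-58, had none.

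Hermaphrodites of this species make sperm for a short period late in larval development and then switch for good to oocytes, so an adult holds a finite stock of self-sperm. The major sperm protein, encoded by the many msp genes, assembles into the filaments on which the amoeboid sperm crawls, and it is also released as a signal that promotes oocyte maturation and contraction of the gonadal sheath. Transcription of these genes takes place before the meiotic divisions, and mature sperm make little or no new RNA. The spe genes were named from mutants with defective sperm, and their products act at different steps, from building sperm organelles to activation, fusion with the egg and the start of embryonic development.

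RNA came from pools of whole worms of strain CL2006, which in every library carried pCL12, a human amyloid beta minigene under the body wall muscle promoter of unc-54, together with the rol-6 marker plasmid pRF4. For 2 generations worms ate HT115 bacteria with an empty vector (EV) or, as RNAi, with a construct made against the 3'UTR of gtr-1, a gene for a neuronal G protein-coupled receptor. The second generation was kept at 20 °C, washed every day to remove progeny, and collected on day 6 of adulthood. Each treatment had 1 library in each of batches 2, 3 and 4, so that 3 EV libraries stood against 3 libraries labelled as gtr-1 RNAi, here called gtr1-labelled.

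Library totals ran from 43067539 to 59812227 counts. The RNAi target was not lower: gtr-1 counts in batches 2, 3 and 4 were 32, 16 and 12 with EV, against 38, 26 and 11 in the gtr1-labelled libraries (log2 fold change 0.13 ± 0.30, SE, edgeR adjusted p = 0.886). The treated group is therefore named by its label throughout. The batch is a number in the labels, with nothing on what it stood for, and no source says whether the pools were separate cultures, so p-values measure only the spread between these libraries. Batch 2 stood apart from batches 3 and 4 for the whole table, where 3714 of 15519 tested genes were higher and 4226 lower in its 2 libraries.

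Gene copies limit what single values show. The msp genes are near-identical copies, as are gsp-3 and gsp-4, and how the counting treated reads that match several copies is not stated in the sources used here. Counts could thus be split or lost between copies, and values of 1 msp gene are uncertain where their sum over the family is less so. All 35 msp genes have 1 exon in the annotation, and those tested have exon lengths of 384 to 402 bases. They lie on chromosomes II (15 genes) and IV (20 genes) in 12 groups with gaps of at most 50 kilobases inside a group. By the annotation, 4 of the 35 are pseudogenes, of which only msp-71 was tested.

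Levels are given as CPM, a gene's counts scaled to libraries of 1 fixed size, with TMM correction. The 35 msp genes together held 258 CPM in the EV library of batch 2, 57.8 in that of batch 3 and 44.1 in that of batch 4. In the gtr1-labelled libraries the summed msp level was 254 CPM in batch 2, 33.7 in batch 3 and 14 in batch 4. Both batch 2 libraries were far above the other 4, and the gtr1-labelled library of batch 4 was the lowest. As raw numbers these sums were 14158, 2376 and 2096 msp reads in the EV libraries and 13657, 1887 and 727 reads in the others. All 74 genes together took 0.0211% to 0.0527% of a library's counts.

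**Figure D1:**
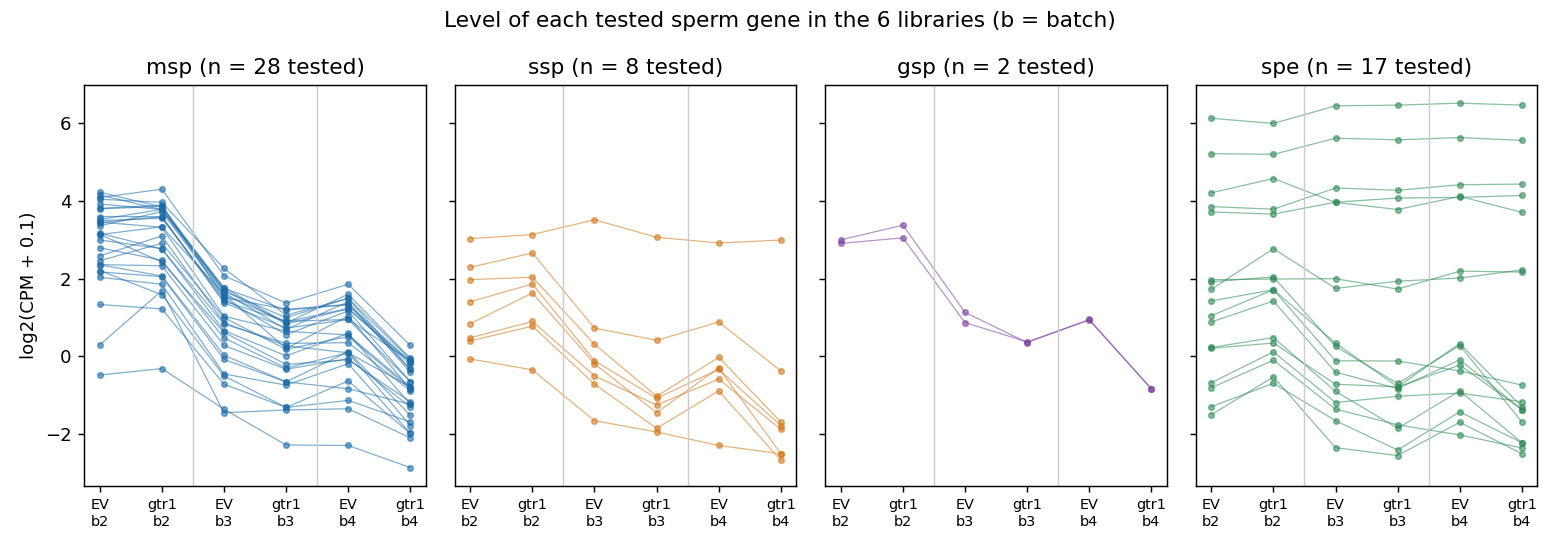
Level of each of the 55 tested sperm genes, as log2(CPM + 0.1) on the vertical axis, in the 6 libraries ordered by batch on the horizontal axis, with 1 panel per family and 1 line per gene. The 28 msp lines and both gsp lines drop from batch 2 to batches 3 and 4 and are lowest in the gtr1-labelled library of batch 4. The ssp-37 line runs nearly level, and the upper spe lines lie slightly lower in batch 2.

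The comparison of batch 2 with batches 3 and 4 was fitted over all 6 libraries with the treatment as a term. Of the 55 tested sperm genes, 47 were higher and 4 lower in batch 2 (edgeR quasi-likelihood test, adjusted p under 0.05). Over all genes tested 23.9% were higher and 27.2% lower. The 55 sperm genes had a median log2 fold change of 2.70, beside 0.15 over all genes tested. A log2 fold change of 2 or more, that is 4-fold, with an adjusted p under 0.05 was met by 40 of the 55 sperm genes and by 6.08% of all genes tested. Batch 2 is a single batch of 2 libraries, so this contrast describes these batches. In bulk RNA fewer sperm cells and less RNA per cell cannot be told apart.

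Some of these calls rested on 1 library or batch. Without the gtr1-labelled library of batch 2, 37 sperm genes were higher, beside 16.5% of all genes, and the median log2 fold change was 1.97. Calls lost there included those of msp-71, ssp-16, ssp-19, ssp-31, spe-9, spe-10, spe-15, spe-44, spe-46 and spe-47. Without batch 4, 39 sperm genes were higher, beside 8.45% of all genes, and spe-8 and spe-26 were no longer called. Without batch 3, 49 were higher, beside 24.5% of all genes.

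Among structural genes, the summed msp level was 256 ± 2.83 CPM in batch 2 (SD, n = 2) and 37.4 ± 18.4 CPM in batches 3 and 4 (SD, n = 4), a 6.84-fold difference. All 28 tested msp genes were higher in batch 2, with log2 fold changes from 2.39 to 3.28 and a median of 2.86. The range of the msp fold changes was narrow, from 5.23-fold for the pseudogene msp-71 to 9.73-fold for msp-113.

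The msp gene with the highest level per length was msp-45 (WBGene00003438, chromosome II, 5156700 to 5157083, minus strand, WBcel235). Its counts were 923, 169 and 167 with EV in batches 2, 3 and 4, and 1050, 139 and 58 in the gtr1-labelled libraries. The lowest batch 2 value of msp-45, 16.8 CPM, was above its highest value in batches 3 and 4, 4.11 CPM. Its log2 fold change was 2.82 ± 0.38 (SE, edgeR adjusted p = 0.00202). msp-113 (WBGene00003468, chromosome IV, 5297962 to 5298345, plus strand), the tested msp gene with the highest fold change, had 248, 25 and 26 counts with EV and 156, 17 and 8 in the gtr1-labelled libraries. Its groups of batches did not overlap either, and its log2 fold change was 3.28 ± 0.30 (SE, edgeR adjusted p = 0.000881).

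The order of the msp genes by level was similar in all libraries. Across the 28 tested msp genes, log2(CPM + 0.1) was correlated between libraries at r = 0.90 to 0.98 over the 15 pairs of libraries. Genes of the same libraries, some with shared sequence, are not independent points. The mean level per length ran from 0.774 CPM per kilobase for msp-71 to 20.6 for msp-45. After msp-45 came msp-76 at 18.2, msp-57 at 17.8 and msp-59 at 17.3 CPM per kilobase. The medians of the batch fold change of the 12 groups of neighbouring msp genes ran from 2.39 to 3.06 on the log2 scale.

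The ssp genes encode sperm-specific proteins of family P, small proteins with the same fold as the major sperm protein. Of 8 tested, 7 were higher in batch 2, and the exception was ssp-37. ssp-34 (WBGene00013858, chromosome IV) had 210, 47 and 42 counts with EV in batches 2, 3 and 4, and 215, 22 and 11 in the gtr1-labelled libraries. The batch 2 libraries of ssp-34 were above all others, and the log2 fold change was 2.81 ± 0.44 (SE, edgeR adjusted p = 0.0033). ssp-35 was higher at 2.70 ± 0.46 and ssp-10 at 2.14 ± 0.34 (log2 fold change, SE).

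ssp-37 (WBGene00012211, chromosome I) did not pass. Its counts were 441, 464 and 353 with EV and 466, 461 and 407 in the gtr1-labelled libraries, with no separation of batch 2. Its log2 fold change was -0.05 ± 0.20 (SE), and the 95% interval reached from -0.53 to 0.43 (edgeR adjusted p = 0.833). ssp-37 was also the highest ssp gene per length, at 19.02 CPM per kilobase against 8.18 for ssp-10. It took 28.2% of the ssp counts in the gtr1-labelled library of batch 2 and 84.1% in that of batch 4, so the summed ssp level, 2.20-fold higher in batch 2, mixes its values with those of the other ssp genes.

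gsp-3 and gsp-4 encode sperm-specific protein phosphatases of type 1, which act on chromosomes in male meiosis and on the motility of sperm. gsp-3 (WBGene00021113, chromosome I, 4709259 to 4710712, minus strand) had 432, 86 and 87 counts with EV and 551, 66 and 24 in the gtr1-labelled libraries. gsp-4 (WBGene00020187, chromosome I, 3838237 to 3839673, minus strand) had 405, 71 and 86 counts with EV and 439, 67 and 24 in the gtr1-labelled libraries. The batch 2 libraries were above all others for both genes. The log2 fold change was 2.86 ± 0.46 for gsp-3 (edgeR adjusted p = 0.00347) and 2.69 ± 0.40 for gsp-4 (SE, edgeR adjusted p = 0.00282). Their broadly expressed relatives gsp-1 and gsp-2 were lower in batch 2, at -0.22 ± 0.04 and -0.23 ± 0.05 (log2 fold change, SE).

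**Figure D2:**
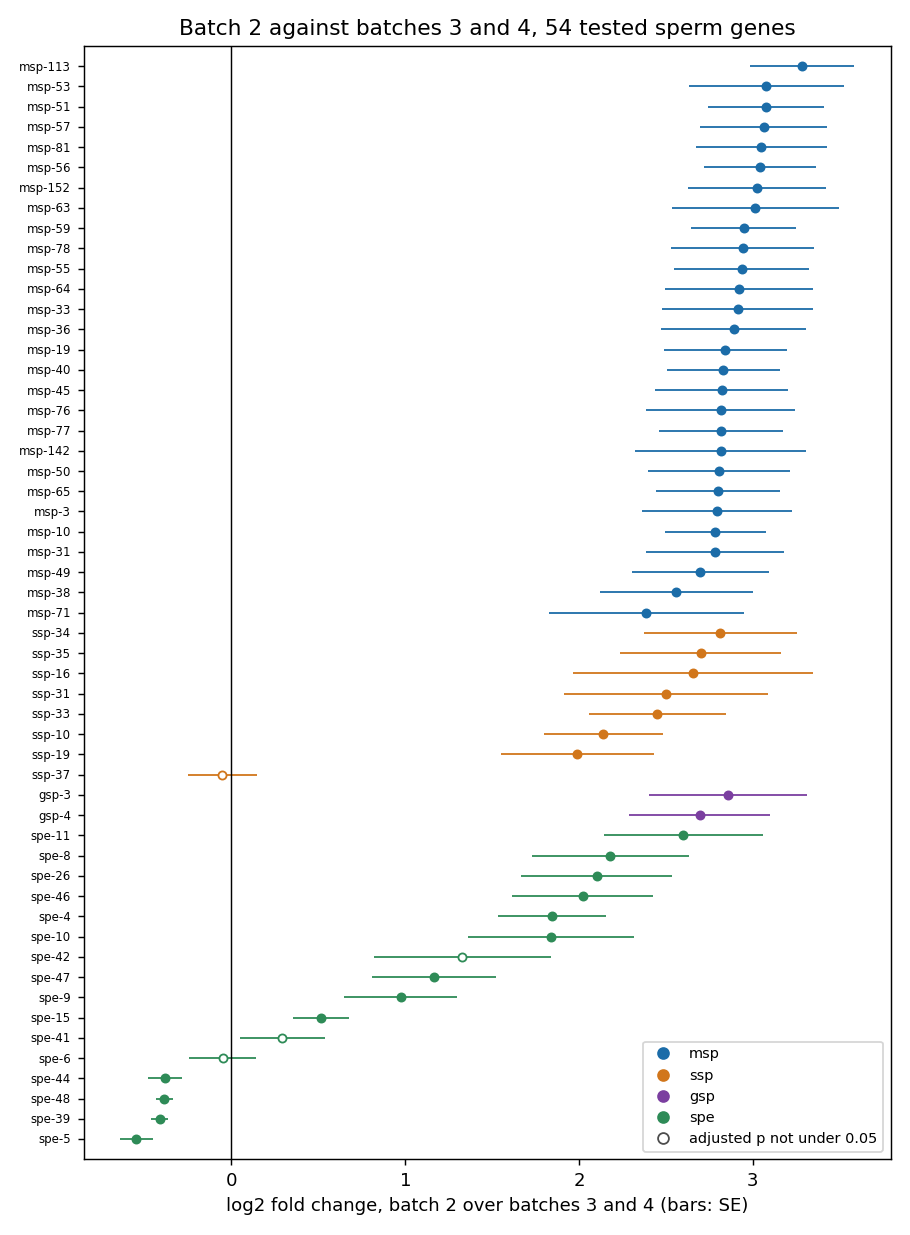
Log2 fold change of batch 2 over batches 3 and 4 (horizontal axis, points with SE bars from edgeR) for 54 of the 55 tested sperm genes (vertical axis, by family), with open points where the adjusted p was not under 0.05. The 28 msp genes lie between 2.39 and 3.28, whereas the spe genes spread from -0.55 to 2.60.

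The spe genes did not move as 1 group. Of 17 tested, 10 were higher in batch 2, 4 were lower, and spe-6, spe-41 and spe-42 did not pass. Of all genes tested, 23.9% were higher and 27.2% lower, so the 4 lower spe genes of 17 were no larger a share than among all genes. Summed over 25 genes the spe level was 178 CPM in batch 2 and 200.5 CPM in batches 3 and 4. In each library 2 abundant genes, spe-39 and spe-48, held 54.9% to 69.0% of the spe counts.

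Among genes for building sperm, spe-26, an actin-binding protein of the kelch family, had 142, 48 and 55 counts with EV in batches 2, 3 and 4 and 171, 27 and 16 in the gtr1-labelled libraries. Its batch 2 libraries were the highest, 4.29-fold above the others (SE of the log2 fold change 0.44, edgeR adjusted p = 0.00893). spe-4, a presenilin-like protein of the membranous organelles of sperm, was higher at 1.85 ± 0.31, and spe-10, a palmitoyl transferase of the same organelles, at 1.84 ± 0.48 (log2 fold change, SE). spe-15, a myosin VI that sorts components between the spermatid and the residual body, was higher by 0.51 ± 0.16. spe-6, a kinase of the casein kinase 1 family, had 210, 160 and 212 counts with EV and 208, 180 and 228 in the others, and its log2 fold change was -0.05, with a 95% interval from -0.52 to 0.42.

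The 4 lower genes were spe-5, spe-39, spe-44 and spe-48. spe-39 (WBGene00004975, chromosome V), which acts in vesicle traffic in many cells, had 3795, 3553 and 4303 counts with EV and 3397, 4891 and 4539 in the others. Its level was 66.1 ± 4.22 CPM in batch 2 (SD, n = 2) and 87.9 ± 1.80 CPM in batches 3 and 4 (SD, n = 4), without overlap (log2 fold change -0.41 ± 0.05, SE, edgeR adjusted p = 0.00136). spe-5, a subunit of the vacuolar proton pump, was lower at -0.55 ± 0.09, and spe-48 at -0.39 ± 0.05. spe-44, a SAND-domain regulator that turns on many sperm genes during spermatogenesis, had 713, 636 and 801 counts with EV and 672, 932 and 905 in the others, and was lower at -0.38 ± 0.10 (SE, edgeR adjusted p = 0.0192). Its direction was opposite to that of the msp genes. An exon of spe-5 is overlapped on the other strand by the protein-coding gene ift-20, and whether the counting used the strand is not given. In all, 2 of the 55 tested sperm genes, spe-5 included, have another protein-coding gene over an exon.

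Among genes of sperm activation, spe-8, a tyrosine kinase, had 59, 18 and 21 counts with EV and 70, 10 and 6 in the gtr1-labelled libraries, and was higher in batch 2 at 2.18 ± 0.45 (log2 fold change, SE, edgeR adjusted p = 0.00898). spe-46 and spe-47, found through mutants that restore activation, were higher at 2.02 ± 0.41 and 1.17 ± 0.36. The partners of spe-8 in activation were too low to test. spe-12 had 34, 8 and 8 counts with EV and 34, 4 and 3 in the others, spe-19 had 57 reads in all, spe-27 had 21 and spe-29 had 2. With so few reads no difference in spe-27 or spe-29 was detectable at this depth.

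Among genes that act at the egg, spe-9, an EGF-repeat protein of the sperm surface, was higher in batch 2 by 0.97 ± 0.32 (log2 fold change, SE, edgeR adjusted p = 0.0463). spe-42, a membrane protein of fertilization, had 17, 9 and 13 counts with EV and 28, 5 and 6 in the others, and at 1.33 ± 0.51 it did not pass (edgeR adjusted p = 0.0698). spe-41, the sperm calcium channel of the TRPC family, had 176, 134 and 187 counts with EV and 361, 208 and 237 in the others, where batch 2 did not separate (0.29 ± 0.25). spe-38 and spe-49, also needed for fusion with the egg, had 29 and 93 reads in all and were not tested. spe-11 (WBGene00004965, chromosome I), which sperm deliver to the egg for the first steps of the embryo, had 202, 45 and 53 counts with EV and 216, 29 and 11 in the others. It had the highest batch fold change of the spe genes, 2.60 ± 0.46 (log2, SE, edgeR adjusted p = 0.005).

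**Figure D3:**
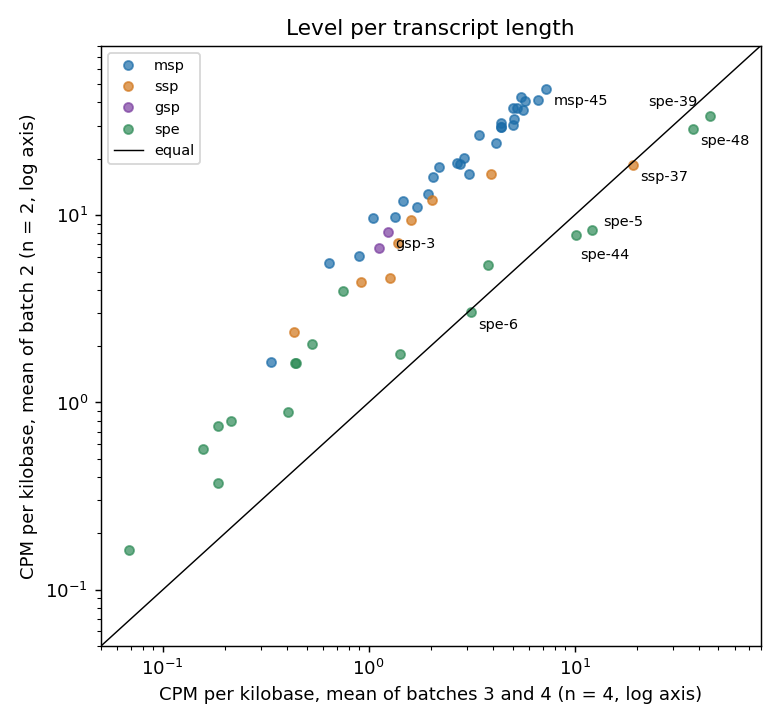
Mean level per length of the 55 tested sperm genes, in CPM per kilobase of exon, in batch 2 (vertical log axis, n = 2) against batches 3 and 4 (horizontal log axis, n = 4), with the line of equal levels. The msp genes form a band above the line, while spe-39, spe-48, spe-5, spe-44 and ssp-37 lie on or below it.

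Per length, the order of spe-39 and msp-45, the highest msp gene, turned with the batch. Reads shared between msp copies could be split or lost in the counting, so the rank of msp-45 beside spe-39 and spe-48 is uncertain. In batches 3 and 4 spe-39 stood at 45.2 CPM per kilobase and spe-48 at 37.7, above msp-45 at 7.31, the highest msp gene there. In batch 2 msp-45 stood at 47.3 CPM per kilobase, above spe-39 at 34.01 and spe-48 at 28.9. As means of the 6 libraries, spe-39 had 41.5, spe-48 34.8, spe-5 10.9 and spe-44 9.39 CPM per kilobase. The median of this mean over the 28 tested msp genes was 9.76, so msp-45 does not stand for the family. On the same mean, spe genes over 4-fold higher in batch 2 had smaller levels, for example spe-11 at 1.81 and spe-8 at 0.373 CPM per kilobase, as did gsp-3 at 3.54 and gsp-4 at 2.98. By this mean the 5 spe genes highest per length were spe-39, spe-48, spe-5, spe-44 and spe-15, and of these only spe-15 was higher in batch 2.

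The second comparison, the study's own, set the gtr1-labelled libraries against the EV libraries with the batch as a block. No sperm gene passed (edgeR, adjusted p under 0.05), in either direction. Over all genes tested 0% were lower and 0.0902% higher. At an unadjusted p under 0.05, 7 sperm genes were lower, all of them msp genes, and 0 were higher, beside 5.68% and 4.99% of all genes tested. DESeq2 called 1 sperm gene lower, msp-59, and 0.625% of all genes. For the 55 sperm genes the median log2 fold change was -0.59, beside -0.03 over all genes tested, and 48 of the 55 lay below 0, as did 58.4% of all genes.

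The values behind this median differed between batches. The summed msp level in the gtr1-labelled library was 0.984 times that of the EV library in batch 2, 0.584 times in batch 3 and 0.318 times in batch 4. The median difference of log2(CPM + 0.1) over the 28 msp genes was -0.06, -0.69 and -1.45 in batches 2, 3 and 4. In batch 2, 12 of the 28 msp genes lay above 0 and 16 below, in batch 3 only msp-63 lay above, and in batch 4 none did. Of all 15519 genes tested, 9714, 7650 and 8505 lay below 0 in batches 2, 3 and 4. Over the 55 sperm genes 48 were below 0 in both batch 3 and batch 4, as were 34.9% of all genes tested.

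The group means hide this pattern. The summed msp level was 120 ± 120 CPM with EV and 100.5 ± 133 CPM in the gtr1-labelled libraries (SD, n = 3 each), so the spread between batches exceeded the difference of the groups. No sperm gene had groups without overlap, beside 3.07% of all genes in the lower and 2.92% in the higher direction. Both batch 2 libraries lay above all others for 48 of the 55 and below them for 4, beside 34.6% and 31.1% of all genes. With 1 batch 2 library in each group, the treatment groups of such genes had to overlap, so this 0 says nothing on the treatment. The gtr1-labelled library of batch 4 was the lowest of the 6 for 45 of the 55 tested sperm genes and for all 28 msp genes, beside 3467 of the 15519 genes tested.

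**Figure D4:**
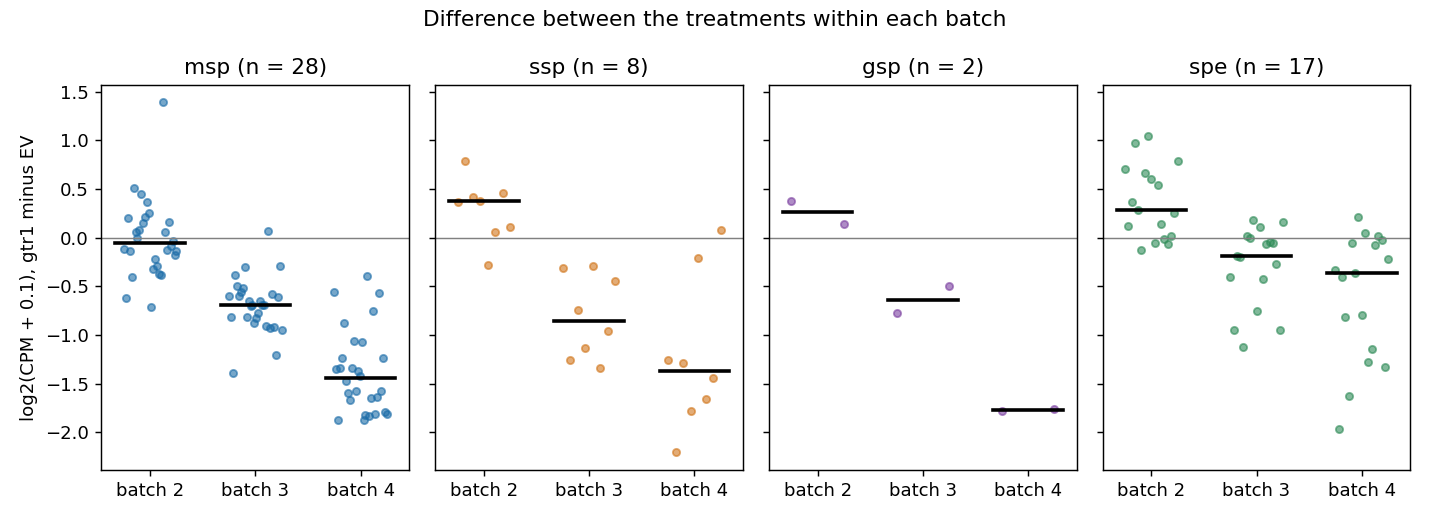
Difference of log2(CPM + 0.1) between the gtr1-labelled library and the EV library of the same batch (vertical axis), 1 point per tested sperm gene, for batches 2, 3 and 4 (horizontal axis) in 4 family panels, with black lines at the medians. The msp medians are -0.06, -0.69 and -1.45, and the gsp medians 0.26, -0.63 and -1.77.

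Among msp genes the smallest adjusted p was that of msp-51 (WBGene00003444, chromosome IV, 5294957 to 5295340, minus strand). Its counts were 477, 59 and 40 with EV and 283, 43 and 18 in the gtr1-labelled libraries. The difference lay below 0 in all 3 batches, with a log2 fold change of -0.92 ± 0.20 (SE) and a 95% interval from -1.42 to -0.42, but it did not pass (edgeR adjusted p = 0.227). msp-59, the gene called by DESeq2, had 967, 136 and 139 counts with EV and 728, 96 and 45 in the others, and its edgeR log2 fold change was -0.97 ± 0.28 (SE, adjusted p = 0.35). msp-113 had -1.02 ± 0.30 (log2 fold change, SE), also without passing. Of the 28 msp genes, 16 had differences below 0 in all 3 batches, the same 16 as in batch 2 alone. In batch 2, 9714 of the 15519 genes tested also lay below 0, so the msp signs there were no more one-sided than those of all genes.

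msp-63 (WBGene00003456, chromosome II) was the only tested msp gene with a value above 0. It had 62, 11 and 14 counts with EV and 168, 16 and 7 in the gtr1-labelled libraries. The batch 2 pair decided the sign, and the log2 fold change was 0.45 ± 0.55 (SE), with a 95% interval from -0.95 to 1.84.

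The gsp and ssp genes had values of the same order in each batch. gsp-3 differed by 0.38, -0.78 and -1.78 and gsp-4 by 0.14, -0.49 and -1.76 in batches 2, 3 and 4 (log2(CPM + 0.1), gtr1-labelled minus EV library). Their log2 fold changes over all batches were -0.68 ± 0.46 and -0.67 ± 0.41 (SE, edgeR adjusted p = 0.624 and 0.602). The ssp medians were 0.37, -0.86 and -1.36. ssp-34 differed by 0.06, -1.33 and -1.66, whereas ssp-37 stayed nearer 0, at 0.11, -0.45 and 0.08.

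Among spe genes, spe-11 differed by 0.12, -0.95 and -1.96 in batches 2, 3 and 4, spe-26 by 0.29, -1.12 and -1.62 and spe-8 by 0.25, -0.95 and -1.33, so each was near or above 0 in batch 2 and below it in the other two. The abundant spe-39 differed by -0.13, 0.02 and -0.05, and its 95% interval for the log2 fold change ran from -0.17 to 0.06. spe-44 had 0.03 ± 0.08 and spe-5 -0.04 ± 0.07 (log2 fold change, SE). spe-41 had the highest value of the tested sperm genes, 0.49 ± 0.23 (SE, edgeR adjusted p = 0.519), and lay above 0 in all 3 batches, at 1.04, 0.18 and 0.21.

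The count of calls rested on the batch 2 pair. Without batch 2, in a fit of 2 libraries against 2 with batches 3 and 4 as blocks and 1 residual degree of freedom, 12 sperm genes were lower and 0 higher (edgeR, adjusted p under 0.05), beside 2.77% of all genes tested that were lower. They were msp-45, msp-50, msp-59, msp-64, msp-76, msp-81, msp-142, ssp-16, ssp-31, ssp-34, spe-11 and spe-26. In that fit msp-76 had a log2 fold change of -1.43 (adjusted p = 0.00801), ssp-34 of -1.75 (0.0208), spe-26 of -1.56 (0.0277) and spe-11 of -1.63 (0.0451). Leaving out only the EV library of batch 2 gave 10 lower genes, beside 2.18% of all genes, and leaving out only its partner gave 5, beside 1.59%. Without batch 3 or without batch 4 none was called.

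Whether the treatment difference itself varied between batch 2 and the other batches was tested by an interaction term, added after the data were seen. No gene of the 15519 passed (edgeR, adjusted p under 0.05), and the smallest adjusted p among the sperm genes was 0.352. At an unadjusted p under 0.05, 14 sperm genes had a higher treatment difference in batch 2 and 0 a lower one, beside 4.4% of all genes that were higher. DESeq2 was not run for this term. The median interaction of the 55 genes was 1.01, beside -0.06 over all genes tested (log2). A difference between batches is therefore not shown for any single sperm gene, and the calls without batch 2 do not show one.

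Within each treatment the summed msp level kept the same order of batches. The summed spe level did not follow it, with batch 2 at 0.851 (EV) and 0.923 (gtr1-labelled) times the mean of batches 3 and 4. Nor did every gene: with EV, gsp-4 and msp-63 were slightly lower in batch 3 than in batch 4. The summed msp level of the EV library of batch 2 was 5.06 times the mean of the EV libraries of batches 3 and 4, and in the gtr1-labelled libraries the ratio was 10.6. For gsp-3 and gsp-4 together these ratios were 4.09 and 11.1. Between batches 3 and 4 the summed msp level differed 1.31-fold with EV and 2.41-fold in the gtr1-labelled libraries, higher in batch 3 in both.

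The authors' deposited batch-corrected values differed from their normalized values in this respect. Over 31 msp genes with such values, the summed normalized level was 6.27 times higher in batch 2 than in batches 3 and 4, and the summed batch-corrected level 1.12 times. In the batch-corrected form the msp sums were 5562, 5297 and 5487 with EV and 5319, 4300 and 4371 in the gtr1-labelled libraries.

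Genes of other sperm families were also mostly higher in batch 2. A list of 43 further sperm gene names had 33 with counts and 29 tested. Of these 26 were higher and 2 lower in batch 2 (median log2 fold change 2.54). Over all genes tested 23.9% were higher and 27.2% lower. The small sperm proteins ssq-2 (3.04 ± 0.35) and nspd-1 (3.15) and the sperm chromatin protein spch-3 (2.66) were among the higher ones, and cpb-1 (-0.67) and zipt-7.1 (-0.44) were lower. Between treatments 28 of the 29 lay below 0, beside 58.4% of all genes tested, with a median of -0.54, and edgeR called none. Of the 16 genes of sperm fate and small RNA pathways, 2 were higher in batch 2, the Argonautes alg-3 (2.27) and alg-4 (2.57) of spermatogenesis, and 12 were lower, among them fog-1 (-1.26), which directs germ cells to the sperm fate.

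By likeness over the 6 libraries, the genes outside the named families that followed the msp mean most closely were Y69E1A.2, ssq-2, C04G2.9, K09E4.1, oac-9, Y106G6A.4, F44D12.8, C06A1.3, F21A3.3 and C32E8.4 (Pearson r of log2 CPM from 0.997 to 0.999). These values rest mainly on the distance of the 2 batch 2 libraries from the other 4. The 100 genes most like the msp mean, of 15519 tested, held 22 sperm genes and 7 of the other sperm list. Of these 22 only gsp-3 and gsp-4 (both r = 0.99) were not msp genes. The tested msp genes make up the mean they were compared with, so their place near it was built in. The tested members least like it were spe-44 (r = -0.97), spe-5 (-0.94) and spe-39 (-0.90).

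Lists of other cells and stages moved with batch 2 as well, and their part in the sperm gene result was not tested. Over all genes tested 23.9% were higher and 27.2% lower in batch 2. Of 16 genes of moulting larvae, 14 were higher and 1, nhr-23, lower in batch 2, with a median log2 fold change of 1.45. Their summed level was 769 and 687 CPM in batch 2 and 289 to 461 CPM in batches 3 and 4. Between treatments all 16 of these genes lay above 0, opposite in sign to most msp genes, and none was called. Of all 15519 genes tested, 6461 lay above 0. In batch 2 alone 12 of the 16 lay below 0. Their summed level in the gtr1-labelled library was 0.893, 1.55 and 1.32 times that of the EV library in batches 2, 3 and 4. Of 27 genes of oocytes and of the response to major sperm protein, 4 were higher and 19 lower in batch 2. The summed level of the 27 was 14462 to 15209 CPM there against 21181 to 22058 CPM in the other libraries. The list joins both kinds of genes and did not move as 1 group. Those higher were plc-3 (0.35), gsa-1 (0.39), kin-1 (0.41) and lfe-2 (0.32, log2 fold changes). Their means in batch 2 were only 18.1 to 74.4 CPM, so the sum does not describe them. All 12 germ cell genes were lower, with a median of -0.51.

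Several other lists leaned below 0 between treatments, with medians nearer 0 than that of the sperm genes, and edgeR called none of their genes. The median log2 fold change was -0.07 for germ cells, -0.08 for sperm fate and small RNA, and -0.37 for males. For oocytes and the response to major sperm protein it was -0.02, and for embryos 0.30. The sperm genes had -0.59, and all genes tested -0.03. Of the 12 germ cell genes 11 lay below 0, 4 of them at an unadjusted p under 0.05, and of the 16 genes of sperm fate and small RNA 14 lay below 0. Of the 7 tested male genes 6 lay below 0, 2 at an unadjusted p under 0.05, and 2 had groups without overlap. The share of all genes tested that lay below 0 was 58.4%. Genes below 0 whose p before adjustment was under 0.05 made up 5.68%, and 3.07% had the gtr1-labelled group wholly under the EV group. The summed male level in the gtr1-labelled library was 1.02, 0.715 and 0.720 times that of the EV library in batches 2, 3 and 4. Most of that sum came from swm-1. Of the 27 genes of oocytes and of the response to major sperm protein 19 lay below 0, and of 7 embryo genes 2. The part of these lists in the sperm gene values was not tested.

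No marker of males was called between batch 2 and the other batches. Of 15 listed, 7 were tested and 0 were higher or lower in batch 2 (edgeR, adjusted p under 0.05). Among all genes tested, 23.9% were higher and 27.2% lower. The 7 male genes had a median level of 0.431 CPM per kilobase, beside 6.83 over all genes tested. With so few and such low genes, this 0 says little about males. Without adjustment 1 male gene, cil-7, had a p under 0.05, in the higher direction, and DESeq2 called 0. Its counts were 31, 15 and 15 with EV and 20, 12 and 11 in the others, and its batch 2 libraries had the highest CPM. The summed level of the male genes was 19.2, 24.9 and 24.4 CPM with EV and 19.6, 17.8 and 17.5 CPM in the gtr1-labelled libraries. Most of it came from swm-1, at 13.7, 18.5 and 18.4 CPM with EV and 13.5, 12.3 and 13.2 CPM in the others. srj-54 was at 0 in all libraries and cwp-1 and cwp-3 had 0 or 1 read in each. Of 12 embryo genes, 7 were tested, and elt-7 alone was called, as higher in batch 2, beside the same 23.9% of all genes.

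**Figure D5:**
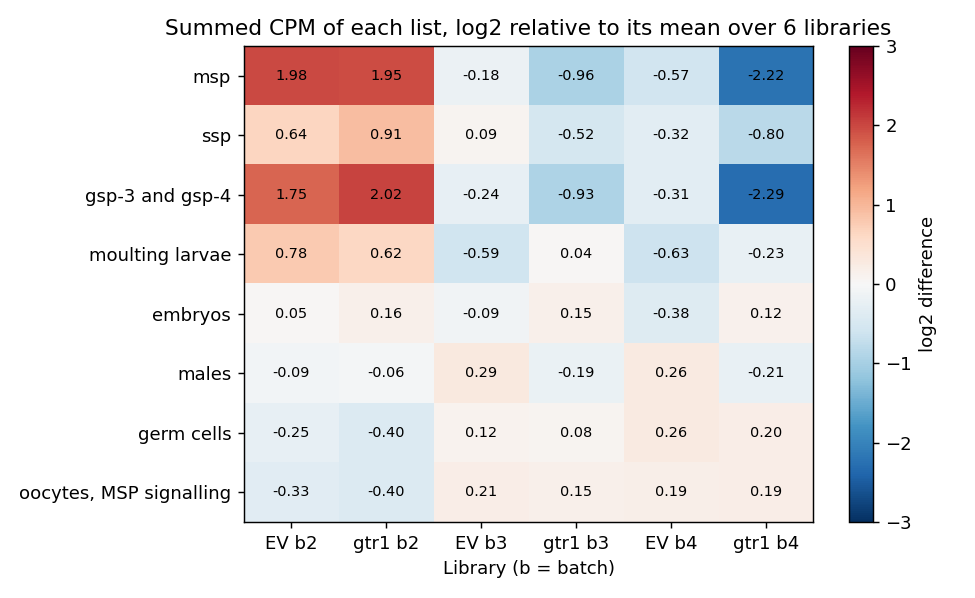
Summed CPM of each gene list in each library, as the log2 difference from the mean of the list's log2 sums over the 6 libraries (colour scale and printed values), with libraries on the horizontal axis and lists on the vertical axis. The msp row runs from 1.98 in the EV library of batch 2 to -2.22 in the gtr1-labelled library of batch 4, while the male row stays between -0.21 and 0.29. Most of the male sum came from swm-1.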

How the data were processed

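Poly(A) RNA of pooled whole worms was sequenced from 6 stranded KAPA libraries, per the labels' protocols. Per the submitters' processing notes, the tools were cutadapt 2.10, TopHat2 2.1.1, HTSeq 2.01 and DESeq2 1.36.0 with the build WBcel235. Their settings, including strand and reads shared between genes, are not stated in the sources used here. The deposited table holds counts for 22416 of 46934 rows. The authors' normalized signal is the count divided by a factor of its library (relative spread at most 1.96e-14), and the authors also deposited a batch-corrected form, used only as a description.

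Genes were tested on the deposited counts with edgeR 4.0.16 in R 4.3.3: filterByExpr with a minimum count of 10 (15519 genes), TMM scaling, glmQLFit and glmQLFTest, with Benjamini-Hochberg adjustment over all genes tested. Treatment was fitted with the batch as a block (2 residual degrees of freedom), and batch 2 against batches 3 and 4 with treatment as a term (3 residual degrees of freedom). Calls needed an adjusted p under 0.05. The SE was taken as the log2 fold change divided by the root of F. Intervals are at 95%. Differences within a batch use log2(CPM + 0.1). DESeq2 1.42.0 was an alternative, beside other filters, scalings, blocks and left-out libraries. The scripts were tested on simulated data. Lengths and coordinates are from Ensembl release 115, in which all 74 genes were found.

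The batch labels pair the libraries. Deviations from the group means were correlated at r = 0.71, 0.47 and 0.66 within batches 2, 3 and 4, and at -0.71 to 0.52 between batches. No library was a copy of another in its group (chi-square over degrees of freedom 22.5 to 133). Precision depends on depth, and genes with low counts carry a wide counting error.

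The members, the lists and the split by batch were chosen with earlier results of these data known. Named by rule were gsp-3 and gsp-4, the 4 genes of each family highest per length, called genes (up to 8 per comparison and direction by p), tested genes opposite in sign to their family's median (up to 6 per comparison), spe genes of known role, up to 4 genes of each other list, and the 10 genes most like the msp mean. Of the named spe genes, spe-51 was not analysed here. Values of 2 other spe genes entered the counts and sums but are not reported here. The genes msp-71, ssp-16, ssp-19, ssp-31, spe-46, spch-3, alg-3 and alg-4, the relatives gsp-1 and gsp-2, the sperm and male genes at or near 0 and those listed without batch 2 were named after their values were seen. So were plc-3, gsa-1, kin-1 and lfe-2. No sequences were used.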

Additional observations from a re-analysis of the deposited data

Results flagged for a closer look

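In groups of 4 libraries (batches 3 and 4), 42 levels were searched for a library far from the rest. They were the summed levels of the 4 families and the levels of named genes. Of the 42, 2 exceeded Dixon's critical value at 95%. Chance gives about 1 in 20 such groups. The msp-63 level was 0.135 CPM in the library labelled gtr-1 RNAi of batch 4 and 0.267 to 0.295 CPM in the other 3 libraries, a Dixon ratio of 0.83. The spe-29 ratio was 1.0, because the EV library of batch 4 had 1 read and the others of these batches had 0.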

How the results depend on the processing

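The DESeq2 Wald test called 1 sperm gene lower between treatments where edgeR called 0. Leaving out libraries or a batch pair gave 0 to 12 lower genes, with 12 without batch 2, 10 without its EV library and 5 without its partner. Without the replicate block, edgeR called 0 sperm genes and the median was -0.15, and gsp-3 (0.0089), ssp-10 (0.0014) and ssp-35 (0.0055) turned to just above 0. The pairing by batch thus changed no call. DESeq2 turned spe-10 (-0.073), not called.

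For batch 2, a minimum count of 50 left 28 higher genes, since 35 were then tested, and turned spe-6 (0.071) and ssp-37 (0.071), neither called. With 1 library or batch left out, the higher calls ranged from 37 (without the library labelled gtr-1 RNAi of batch 2, beside 16.5% of all genes) to 51, with 39 without batch 4 (8.45%) and 49 without batch 3 (24.5%). The median ranged from 1.97 to 3.22. The summed msp difference was 5.66-fold to 8.36-fold with 1 library left out, 6.27-fold with DESeq2 size factors and 7.81-fold with plain totals, alternatives chosen after seeing the data. Calls such as those of spe-9, spe-10, spe-15 and spe-47 were lost under several alternatives.

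With libraries left out, treatment values that changed sign, none called at first, ranged for msp-63 from -0.44 to 0.96, spe-4 from -0.20 to 0.37, spe-9 from -0.043 to 0.59, spe-10 from -0.58 to 0.41, spe-15 from -0.30 to 0.093, spe-44 from -0.00288 to 0.080, spe-47 from -0.72 to 0.045, spe-48 from -0.058 to 0.017, spe-5 from -0.065 to 0.037, spe-6 from -0.14 to 0.059, ssp-10 from -0.82 to 0.044 and ssp-37 from -0.19 to 0.16. Batch values did so for spe-6 (-0.25 to 0.094), spe-41 (-0.17 to 0.63) and ssp-37 (-0.24 to 0.081). The cause was not tested. Depth limits the 19 untested genes.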
